A study of Homo sapiens with 6 samples.

Results

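The 10 genes described here encode the sensors of double-stranded RNA and the adaptors and kinases directly behind them, and they were chosen by symbol from the 56638 symbols in the count files. They are the sensors DDX58, IFIH1, DHX58, TLR3 and EIF2AK2, the ubiquitin ligase TRIM25, the adaptors MAVS and TICAM1, and the kinases TBK1 and IKBKE. They were measured by RNA sequencing in 6 libraries made from human colorectal cancer cells of an established line, 3 of them labelled control siRNA and 3 labelled as siRNA against lncRNA-AF339830, the long non-coding RNA named GLCC1 in the study. The study's question was what changes in these cells when GLCC1 is depleted. Both groups received an siRNA, a nonspecific duplex in the controls, were grown in RPMI-1640 with fetal bovine serum, and carry no other treatment in the labels. No untransfected library was analysed here, so each value compares one transfected group with another. The labels give neither the time after transfection nor separate cultures for the 3 libraries of a group, and the p-values measure only the spread between these libraries, which may be technical. The titles number the siRNAs of each group from 1 to 3 whereas the genotype labels read siRNA1 throughout, so it is not known whether the 3 GLCC1 libraries share an siRNA, and the spread among them may also hold differences between siRNAs.

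Cells detect double-stranded RNA as a sign of viral infection. In the cytosol, RIG-I and MDA5 bind it and signal through MAVS on the mitochondrial membrane to the kinases TBK1 and IKKε, which phosphorylate the transcription factors IRF3 and IRF7 and so switch on interferon genes. In the endosome, TLR3 binds it and signals through TRIF, whereas PKR answers it by phosphorylating eIF2α, which slows translation. Many of these genes are themselves induced by interferon in epithelial cells, and short duplexes such as siRNAs are ligands that some of these sensors can bind.

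Several facts of the libraries bear on every value below. The cell line is SW480 in the labels and DLD-1 in the study's methods. By the names of the libraries the siRNAs of the groups are the other way round than by the titles, so each direction below is that of the titles, and under the library names it turns round. No row of the files is named GLCC1 or AF339830, so the depletion itself was not checked here. Libraries held between 11948790 and 19042516 pairs of reads assigned to genes. Replicate 2 of GLCC1 siRNA held the fewest and stood apart, with a chi-square per degree of freedom of 18.1 and 19.0 to the other GLCC1 libraries against 3.28 between those, and of 1.93 to 4.16 among the controls, so that no library was a copy of another. Of pairs that fell on a gene, on several genes or on none, 11.2% to 11.5% fell on none in the controls. With GLCC1 siRNA this share was 12.5% to 14.2%, the highest in replicate 2. Its part in the results below was not tested. The colon epithelium markers all had counts in these cells, KRT20 only 3 to 14 in a library. Levels are given in CPM, which are counts scaled by the library total and its TMM factor. The sum of these markers was between 5683 and 6201 CPM in the controls and between 2415 and 2792 CPM with GLCC1 siRNA. KRT8 was the largest part of it, at a mean of 3584 CPM in the controls and 1177 CPM with GLCC1 siRNA. With GLCC1 siRNA 6 of 10 fell, 1, CDH17, rose, and VIL1, CDX2 and KRT20 did not pass the test. Of 14 markers of leukocytes, fibroblasts and endothelium, 6 had no count in any library, among them PTPRC, PECAM1 and CDH5. The sum of all 14 was between 21.6 and 24.6 CPM in the controls and between 14.8 and 20.7 CPM with GLCC1 siRNA. The highest of them, COL1A1, fell from a mean of 13.4 to 7.37 CPM (edgeR adjusted p = 2.9e-04). PDGFRB and CD14 came next, at 4.56 and 3.29 CPM in the controls, and did not pass the test. The part of these shifts in the results below was not tested, and in bulk RNA fewer cells of a type cannot be told apart from less RNA per cell.

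The promoters of the members were searched for the words that interferon-activated factors are known to bind, because several members are known interferon targets. RefSeq promoters (GRCh38.p14, 250 bases before to 50 after the start) were at hand for 9 of the 10 members, DHX58 being the exception, and DDX58 was matched under its newer symbol RIGI. The interferon-stimulated response element was searched on both strands as GAAA, any pair of bases and GAAA again. It was present in the windows of IFIH1, TLR3 and EIF2AK2, as in 3.57% of all 35116 promoters. The gamma-activated site, searched as TTCNNNGAA, was present in the window of TLR3 alone among the 9, starting 178 and 50 bases before the start, as in 7.66% of all promoters. The stretches with the response element, in capitals, are printed for 3 members that were higher with GLCC1 siRNA. DDX58 and IKBKE, which were also higher, had no match, and DHX58, also higher, was not searched. In IFIH1 a pair of overlapping matches on the reverse strand begins 159 and 153 bases before the start, and the next match begins 21 bases before it. In TLR3 (reverse strand) and EIF2AK2 (forward strand) the match begins 4 and 6 bases before the start. A match is a description of the letters only, and binding was not measured.
IFIH1, chr2:162318656-162318883, minus strand: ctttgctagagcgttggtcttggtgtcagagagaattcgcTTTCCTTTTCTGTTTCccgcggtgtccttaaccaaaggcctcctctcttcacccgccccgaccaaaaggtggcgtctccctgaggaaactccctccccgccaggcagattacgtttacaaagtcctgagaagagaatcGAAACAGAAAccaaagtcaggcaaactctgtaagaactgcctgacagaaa
TLR3, chr4:186069112-186069201, plus strand: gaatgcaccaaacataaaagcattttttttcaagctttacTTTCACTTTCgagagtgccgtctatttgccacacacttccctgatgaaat
EIF2AK2, chr2:37156937-37157026, minus strand: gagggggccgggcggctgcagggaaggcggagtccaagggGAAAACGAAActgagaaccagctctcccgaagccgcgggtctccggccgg

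All 10 members passed the filter on low counts. With GLCC1 siRNA 6 of the 10 were higher at an adjusted p under 0.05 in edgeR, 2 were lower and 2 passed in neither direction, where 14.9% of all 23074 genes tested were called higher and 16.8% lower. The median log2 fold change of the members was 0.81, against 0.03 over all genes tested. All 5 sensors and the kinase IKBKE rose, the adaptors MAVS and TICAM1 fell, and TRIM25 and TBK1 did not pass the test. The libraries of the groups did not overlap for the 6 members that rose and the 2 that fell, where 22.2% of all genes were higher and 24.1% lower without overlap. With library totals in place of TMM factors, the calls over all genes were 4735 higher and 2797 lower in place of 3427 and 3866, with the members at 6 and 1.

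**Figure D1:**
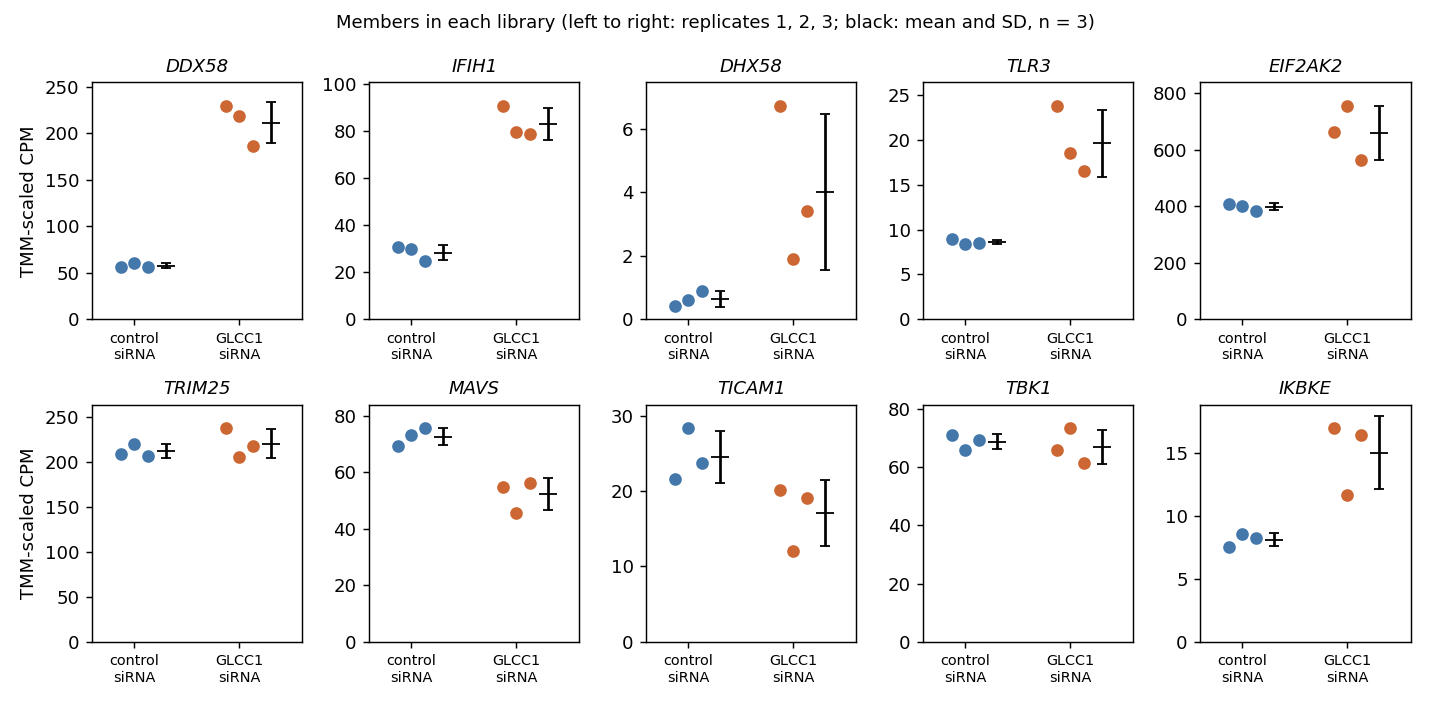
TMM-scaled CPM of each of the 10 members in the 3 control and 3 GLCC1 siRNA libraries, 1 panel a gene with its own axis from 0; points are libraries and black marks the group means with SD. DDX58, IFIH1, DHX58, TLR3, EIF2AK2 and IKBKE lie higher without overlap, MAVS and TICAM1 lower, and the groups of TRIM25 and TBK1 overlap.

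DDX58 encodes RIG-I, which binds short duplexes and triphosphate ends, and lies on chr9:32455300-32526206 (hg19, minus strand). The control libraries held 56.4, 60.4 and 56.4 CPM and the GLCC1 libraries 229, 219 and 186 CPM in replicates 1 to 3. The lowest GLCC1 library stood far above the highest control, and the means were 57.7 ± 2.35 and 211 ± 22.4 CPM (SD, n = 3). DDX58 thus rose 3.66-fold (95% interval 3.17 to 4.23, edgeR adjusted p = 2.94e-08), on counts of 822 to 1097 in the controls and 2754 to 4397 with GLCC1 siRNA.

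IFIH1 encodes MDA5, the sensor of long duplexes, on chr2:163123584-163175194 (minus strand). It was measured at 30.6, 30.0 and 24.6 CPM in the controls and at 90.5, 79.7 and 78.6 CPM with GLCC1 siRNA. The groups were well apart, and the 3 GLCC1 libraries differed little among themselves. The rise was 2.92-fold (2.49 to 3.44, edgeR adjusted p = 3.14e-07).

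DHX58 encodes LGP2, a helicase without the signalling domains of the other receptors of its family that modulates their signal, on chr17:40253422-40264732 (minus strand). It was close to the limit of detection in the controls, with 6, 11 and 15 counts or 0.411, 0.606 and 0.903 CPM. The GLCC1 libraries held 129, 24 and 61 counts or 6.72, 1.91 and 3.41 CPM, so that replicate 2 was the lowest of the GLCC1 libraries but still above each control. The rise was 6.36-fold with a wide interval (3.27 to 12.4, edgeR adjusted p = 4.48e-04). DHX58 had the largest log2 fold change of the 10 members, 2.67 with an SE of 0.45, and the least precise. It was 2.07 without GLCC1 replicate 1, 2.97 without GLCC1 replicate 2 and 2.98 without control replicate 3, and it passed the test with each library left out.

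TLR3 encodes the endosomal sensor on chr4:186990065-187009227 (plus strand). It was measured at 8.91, 8.43 and 8.55 CPM in the controls and at 23.8, 18.5 and 16.6 CPM with GLCC1 siRNA. The control libraries were nearly alike, and the GLCC1 libraries were all higher, replicate 1 the most. The rise was 2.28-fold (1.84 to 2.83, edgeR adjusted p = 3.26e-05).

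EIF2AK2 encodes PKR, the kinase of eIF2α, on chr2:37326353-37384665 (minus strand). The control libraries held 408, 399.7 and 384 CPM and the GLCC1 libraries 663, 754 and 562 CPM. All GLCC1 libraries were higher, with replicate 2 the highest here, unlike in the other sensors. The rise of 1.66-fold (1.43 to 1.92, edgeR adjusted p = 8.42e-05) was the smallest among the sensors, from the highest level of all members. GPATCH11 overlaps EIF2AK2 on the opposite strand and fell, with a log2 fold change of -1.08. The counting is not stated to use strand, and pairs that touch more than one gene are counted for neither in union mode.

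TRIM25 encodes a ubiquitin ligase known to modify RIG-I, on chr17:54913748-54991441 (minus strand). It was measured at 209, 221 and 207 CPM in the controls and at 238, 206 and 218 CPM with GLCC1 siRNA. The groups overlapped, with the lowest of all 6 libraries in the GLCC1 group, and the fold of 1.04 had an interval of 0.921 to 1.18 (edgeR adjusted p = 0.637). Folds within that interval are compatible with these values. TRIM25 overlaps DGKE on the opposite strand and C17orf67 on its own strand, which rose by 0.54 and 0.71 on the log2 scale, and here too the reads lost or shared were not measured.

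MAVS encodes the adaptor shared by RIG-I and MDA5, on chr20:3827446-3856770 (plus strand). Its values were 69.5, 73.0 and 75.5 CPM in the controls and 54.9, 45.6 and 56.2 CPM with GLCC1 siRNA. Every GLCC1 library was below every control, replicate 2 the lowest. MAVS fell to 0.720 of the control (0.622 to 0.834, edgeR adjusted p = 0.00222), which was a log2 fold change of -0.47 with all libraries and of -0.38 without GLCC1 replicate 2.

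TICAM1 encodes TRIF, the adaptor of TLR3, on chr19:4815944-4831724 (minus strand). It was measured at 21.7, 28.3 and 23.7 CPM in the controls and at 20.1, 12.0 and 19.1 CPM with GLCC1 siRNA. The groups did not overlap but came close, since the lowest control and the highest GLCC1 library differed little, and replicate 2 alone was far lower. The log2 fold change of -0.51 (0.702 of the control, 0.548 to 0.900, edgeR adjusted p = 0.0314) was the weakest call among the members. It was lost without control replicate 2 (-0.40, edgeR adjusted p = 0.164), without control replicate 3 (-0.54, edgeR adjusted p = 0.0734) and with library totals (-0.39, edgeR adjusted p = 0.0819). Without GLCC1 replicate 2 the log2 fold change was -0.32, which passed the test.

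TBK1 and IKBKE encode the related kinases TBK1 and IKKε, which act on IRF3 and IRF7. TBK1, on chr12:64845870-64895894 (plus strand), was measured at 71.0, 65.9 and 69.3 CPM in the controls and at 65.9, 73.3 and 61.5 CPM with GLCC1 siRNA. Its groups overlapped throughout, and its fold of 0.972 had an interval of 0.847 to 1.12 (edgeR adjusted p = 0.774). IKBKE, on chr1:206643819-206670222 (plus strand), held 7.54, 8.54 and 8.25 CPM in the controls and 16.9, 11.7 and 16.4 CPM with GLCC1 siRNA. All GLCC1 libraries were above the controls, replicate 2 the least, and the rise was 1.86-fold (1.49 to 2.33, edgeR adjusted p = 4.48e-04). IKBKE overlaps C1orf147, which had at most 17 counts in any library.

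**Figure D2:**
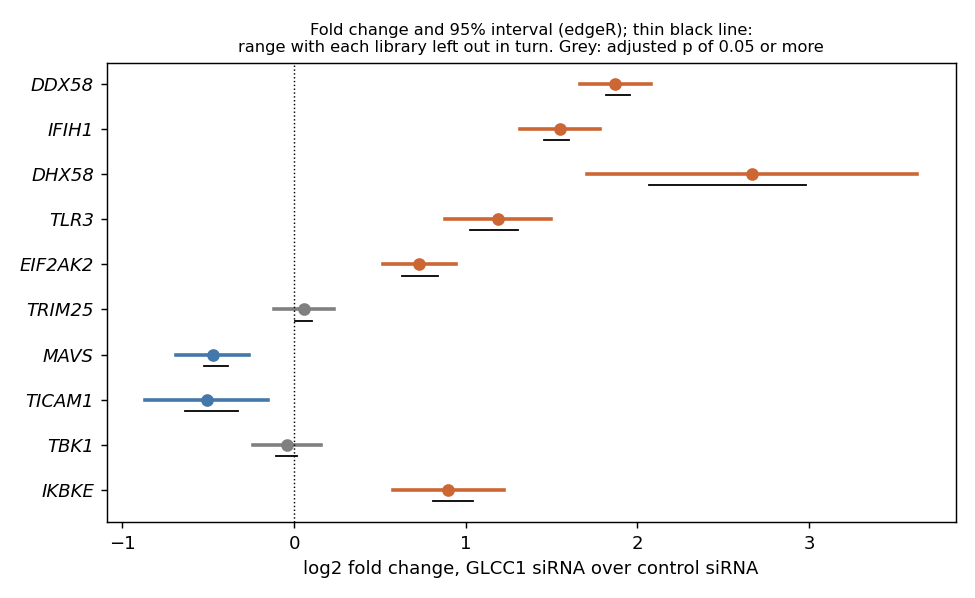
Log2 fold change of each member, GLCC1 siRNA over control siRNA, from edgeR, with its 95% interval as a coloured line (orange called higher, blue lower, grey neither) and the range with each library left out as a thin black line. The sensors and IKBKE lie to the right of 0, from 0.73 for EIF2AK2 to 2.67 for DHX58, MAVS and TICAM1 to the left at -0.47 and -0.51, and TRIM25 and TBK1 lie on it.

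Single-gene tests over 3 against 3 libraries cannot go below p = 0.1 in a two-sided exact permutation test. The 8 members called by edgeR all stood at this limit, and TRIM25 and TBK1 had exact p-values of 0.7 and 0.6. Among the GLCC1 libraries, replicate 1 held the highest value of 7 members. Replicate 2 was the lowest for 5 members and replicate 3 for the other 5. The calls of the members were the same without GLCC1 replicate 2, with 6 higher and 2 lower. Over all genes the calls were then 4843 higher and 5079 lower, in place of 3427 and 3866.

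The balance between related members was measured as a log2 ratio within each library, which does not depend on scaling between libraries. The ratio of DDX58 to IFIH1 was 0.88, 1.01 and 1.20 in the controls and 1.34, 1.46 and 1.24 with GLCC1 siRNA. The groups did not overlap, and DDX58 went from 2.04 to 2.55 times the count of IFIH1 (exact permutation p = 0.1, adjusted over 5 pairs 0.25). The ratio of IKBKE to TBK1 was -3.24, -2.95 and -3.07 in the controls and -1.96, -2.65 and -1.90 with GLCC1 siRNA, also without overlap (exact permutation p = 0.1, adjusted 0.25). IKBKE thus went from 0.118 to 0.222 of the count of TBK1.

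The ratios of DHX58 to DDX58 and to IFIH1 overlapped between the groups, with differences of 0.67 and 0.98 (exact permutation p = 0.4 and 0.2, adjusted 0.5 and 0.333). These differences were lowest without GLCC1 replicate 1 (0.26 and 0.58) and highest without GLCC1 replicate 2 (1.14 and 1.40), and were 0.40 and 0.64 without control replicate 1. The ratio of the adaptors TICAM1 to MAVS was -1.68, -1.37 and -1.67 in the controls and -1.45, -1.93 and -1.56 with GLCC1 siRNA. It overlapped and differed by -0.069 (exact permutation p = 0.8, adjusted 0.8), and the sign turned without control replicate 2 (0.034) or GLCC1 replicate 2 (0.072). No ratio passed the test after adjustment, which this design does not allow.

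**Figure D3:**
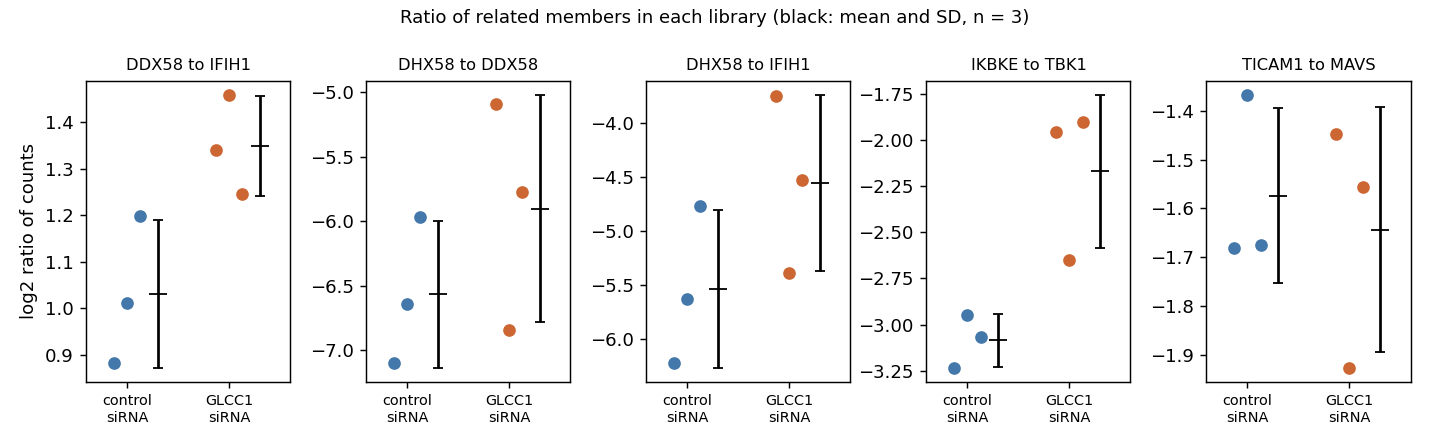
Log2 ratio of the counts of related members within each of the 6 libraries, 1 panel a pair with its own axis, with control libraries in blue, GLCC1 siRNA libraries in orange and means with SD in black. The groups are apart for DDX58 to IFIH1 and for IKBKE to TBK1 and overlap for the other 3 pairs.

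Levels were compared between members only per length, as CPM per kilobase of the union of the gene's exons in GENCODE 44 on hg19. In the controls EIF2AK2 had the highest level at 36.0, followed by TRIM25 at 17.1, TICAM1 at 9.15, MAVS at 6.17, DDX58 at 5.58, IFIH1 at 5.43, TBK1 at 4.67, IKBKE at 2.14, TLR3 at 1.15 and DHX58 at 0.167. Among neighbours in that order, the ranges of DDX58 (5.45 to 5.84) and IFIH1 (4.70 to 5.85) overlapped, as did those of IFIH1 and TBK1 (4.48 to 4.83).

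With GLCC1 siRNA the level of DDX58 was 20.4 CPM per kilobase and that of IFIH1 15.9, so that DDX58 moved from the fifth to the second place and IFIH1 from the sixth to the fourth. MAVS went from the fourth to the seventh place at 4.44, and TICAM1 from the third to the fifth at 6.36. These places follow the means, and the libraries did not separate them from their neighbours. With GLCC1 siRNA the range of TRIM25 overlapped those of DDX58 and IFIH1. The range of TBK1 (4.18 to 4.98) overlapped those of TICAM1 and MAVS (3.88 to 4.77), and that of MAVS overlapped IKBKE. EIF2AK2 stayed the highest at 59.8 and DHX58 the lowest at 1.05. Per kilobase of all exons, DDX58 and IFIH1 thus stood below MAVS, the adaptor of their receptors, in the controls and above it with GLCC1 siRNA. This order depends on the length used. Per kilobase of the canonical transcript, DDX58 at 12.5 and IFIH1 at 7.92 stood above MAVS at 6.20 in the controls already, and TBK1 stood at 22.7.

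**Figure D4:**
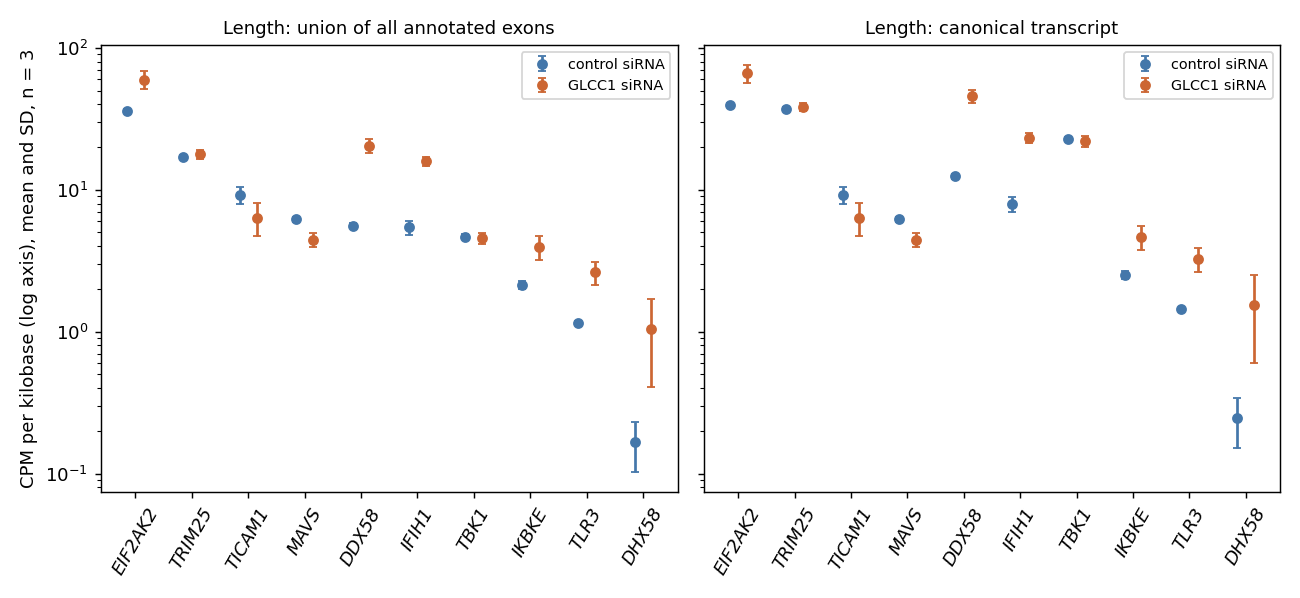
Level of each member in CPM per kilobase of exons, on a log axis, as mean and SD of 3 control (blue) and 3 GLCC1 siRNA (orange) libraries, with the union of exons as length on the left and the canonical transcript on the right. On the left the control means run from 0.167 for DHX58 to 36.0 for EIF2AK2, and there DDX58 and IFIH1 pass MAVS and TICAM1 with GLCC1 siRNA.

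The genes next to the members were read as a comparison for position. Of the 20 nearest protein-coding genes on either side of the members, 18 were tested. FAP, next to IFIH1, passed the count filter through the GLCC1 libraries alone, with at most 1 count in a control and 4 to 11 counts with GLCC1 siRNA. Of the other 17, 4 rose and 3 fell, with a median log2 fold change of -0.043. Over all 23074 genes tested 14.9% rose and 16.8% fell. The 532 bases between DDX58 and ACO1 separate a member that rose from a gene at -0.043 (edgeR adjusted p = 0.73). ACO1 is on the opposite strand, and these bases lie between the ends of both genes, not between their starts. KAT2A, 396 bases from DHX58 on the same strand, was at 0.19 (edgeR adjusted p = 0.155).

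GCA, which encodes the calcium-binding protein grancalcin, lies 155 bases from IFIH1 on the opposite strand, with the starts of both genes facing away from each other. It was measured at 1.71, 2.09 and 1.39 CPM in the controls and at 7.24, 6.12 and 6.43 CPM with GLCC1 siRNA. The groups did not overlap, and GCA rose 3.80-fold (edgeR adjusted p = 6.18e-06). XPOT, which exports tRNA from the nucleus and lies 964 bases from TBK1, fell by 0.72 on the log2 scale (edgeR adjusted p = 4.66e-05).

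The other genes of the pathway were read from 6 lists by role. The comparison for each list is the share over all 23074 genes tested, of which 14.9% rose and 16.8% fell. Of 24 genes that relay the signal of RIG-I and MDA5, 7 rose (29.2%) and 4 fell (16.7%). Their median log2 fold change was -0.009. ZC3HAV1, an antiviral zinc finger protein that aids RIG-I, rose from 107 ± 3.98 to 177 ± 20.4 CPM (log2 0.73, edgeR adjusted p = 5.94e-05). TRAF3, the ubiquitin ligase between MAVS and TBK1, rose by 0.71, MEX3C by 0.57 and the transcription factor IRF7 by 0.64. CHUK, the IκB kinase subunit α, fell from 92.4 ± 2.22 to 53.8 ± 7.51 CPM (log2 -0.78, edgeR adjusted p = 6.35e-05), and TRIM65, a ubiquitin ligase of MDA5, fell by 0.60. IRF3, the main substrate of TBK1, was at 0.016 (edgeR adjusted p = 0.922). Without control replicate 3 the number that fell was 2, with 2840 genes called lower in all, in place of 3866.

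Of 19 genes that hold this signal down, 4 rose and 4 fell (21.1% each), with a median of 0.07. SIKE1, a known inhibitor of IKKε and TBK1, fell from 93.0 ± 1.49 to 42.6 ± 6.30 CPM (log2 -1.13, edgeR adjusted p = 3.46e-06). The deubiquitinases USP21 and OTUB1 fell by 0.57 and 0.68. NLRC5 rose from 25.1 ± 2.62 to 55.4 ± 16.1 CPM (log2 1.14, edgeR adjusted p = 1.58e-04), and PCBP2, which promotes the breakdown of MAVS, rose by 0.24.

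Around PKR the 18 genes tested showed 2 that rose (11.1%) and 6 that fell (33.3%), with a median of -0.14. EIF2S1, which encodes eIF2α, the substrate of PKR, fell from 246 ± 14.9 to 126 ± 10.8 CPM (log2 -0.96, edgeR adjusted p = 3.25e-06). EIF2S3, the γ subunit of the same factor, fell by 0.91, and EIF2B2, a subunit of its exchange factor, fell by 1.62. ATF4 and DDIT3, which are transcription factors downstream of eIF2α phosphorylation, rose by 0.52 and 0.42. The kinase EIF2AK2 and its substrate thus moved in opposite directions. The number that rose was 1 without control replicate 1 or control replicate 3. Over all genes 2468 and 2381 were then called higher, in place of 3427.

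Of 18 further proteins that bind or remodel double-stranded RNA, 17 were tested and ZBP1 was removed by the filter. Of these, 3 rose (17.6%) and 7 fell (41.2%), with a median of -0.22. The helicases DDX60L and DDX60 rose from 35.6 ± 2.81 to 165 ± 18.1 CPM (log2 2.21, edgeR adjusted p = 1.89e-08) and by 1.70, and ZNFX1 rose by 1.05. STAU1, which binds duplexes in messenger RNA, fell from 200.4 ± 6.56 to 96.4 ± 7.26 CPM (log2 -1.06, edgeR adjusted p = 9.28e-07), and the abundant helicases DDX21 and DHX9 fell by 1.10 and 0.41. Without control replicate 1, control replicate 3 or GLCC1 replicate 3 the number that fell was 3, 3 and 4. Over all genes 3095, 2840 and 3574 were then called lower, in place of 3866.

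Of 25 genes of the other Toll-like receptors and their helpers, 18 were tested. TLR2, TLR4, TLR7 and TLR8 had no count in any library, and TLR10, TICAM2 and RIPK3 were removed by the filter. Of the 18, 4 rose and 4 fell (22.2% each), with a median of 0.08. TLR6 rose from 2.47 ± 0.213 to 7.24 ± 1.49 CPM (log2 1.54, edgeR adjusted p = 4.84e-05) and TRIM56 by 0.81. CTSL, an endosomal protease known to cleave TLR3, fell by 0.45, and UNC93B1, the chaperone that carries TLR3 to the endosome, by 0.39. The number that fell was 2 without control replicate 1 or GLCC1 replicate 3 and 1 without control replicate 2 or 3, and the number that rose was 2 without control replicate 2. In the same order, 3095, 3574, 2835 and 2840 genes were called lower in all, in place of 3866. Without control replicate 2, 2410 genes were called higher in all, in place of 3427.

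The list of genes switched on by IRF3 or NF-κB held 12 genes. The interferon genes IFNB1, IFNL1, IFNL2 and IFNL3 passed the count filter through the GLCC1 libraries alone, with 0 to 3 counts in each control. Of the other 8 genes, 6 rose and 0 fell, with a median of 1.94. IFIT1, an RNA-binding antiviral protein, rose from 83.4 ± 8.89 to 513 ± 77.6 CPM (log2 2.62, edgeR adjusted p = 1.32e-08). IFIT2 and IFIT3 rose by 2.79 and 2.84, and the ubiquitin-like protein ISG15 by 1.17. The NF-κB targets NFKBIA and TNFAIP3 were at -0.051 and 0.30 and did not pass (edgeR adjusted p = 0.736 and 0.071). IFNB1, which encodes interferon-β, had 1, 0 and 0 counts in the controls and 2 counts in each GLCC1 library, so a difference was not detectable at this depth (edgeR adjusted p = 0.214).

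**Figure D5:**
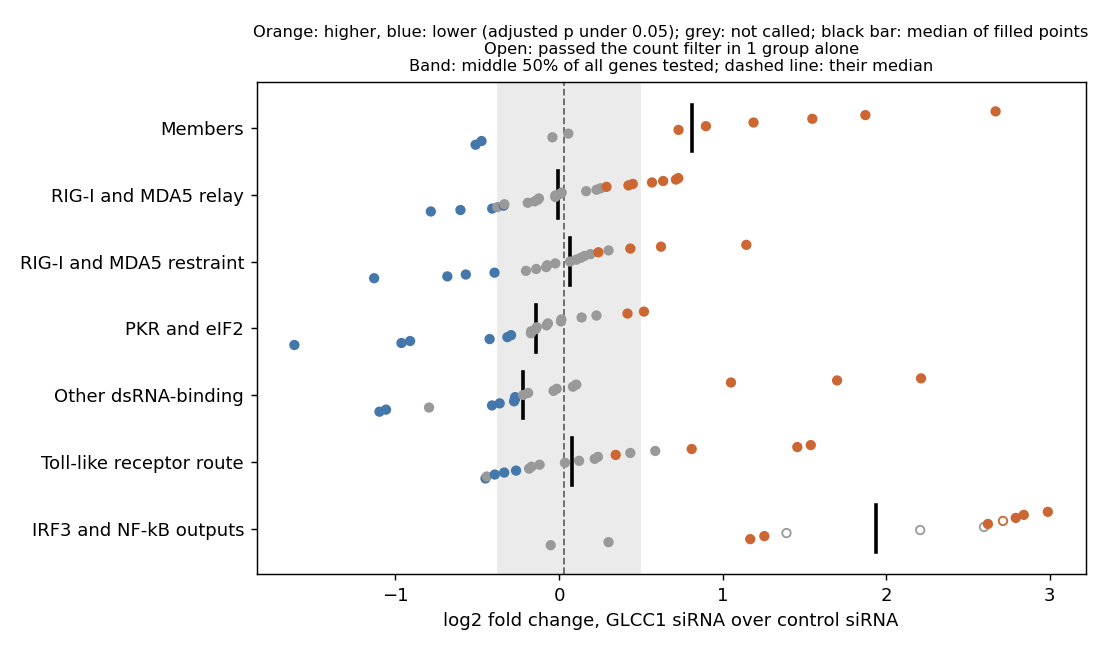
Log2 fold change, GLCC1 siRNA over control siRNA, of each tested gene of the members and the 6 pathway lists, 1 row a list, with the median of the filled points as a black bar, open points for genes that passed the count filter in 1 group alone, higher calls in orange, lower in blue and the middle of all genes tested as a grey band. The medians are 0.81 for the members and 1.94 for the genes switched on by IRF3 or NF-κB, and lie between -0.22 and 0.08 for the other 5 lists.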

How the data were processed

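Paired-end reads of 6 total RNA libraries were mapped by the authors to hg19 with TopHat2 2.0.11 and assigned to genes with the union mode of HTSeq. The authors deposited whole-number counts per gene symbol for each library, without normalization. HTSeq's tallies of pairs given to no gene (between 30.0% and 30.9% of all pairs) were removed. Libraries were grouped by title. A gene was kept where its counts in either group summed to at least 5, as in the study's methods. Counts were scaled with TMM factors and compared with the robust quasi-likelihood test of edgeR 4.0.16 under R 4.3.3, with Benjamini-Hochberg adjustment over all 23074 genes and a threshold of 0.05. Intervals are at 95%. Log2 ratios between members were compared with two-sided exact permutation tests over libraries. DESeq2 1.42.0, other normalizations, filters and thresholds, the replicate number as a block, and leaving out each library in turn were tried as alternatives. For groups taken from the library names the sign of each fold change was turned, without a new fit. The procedure was tested on simulated data.

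Between 11948790 and 19042516 pairs per library were counted, so DHX58 rests on 6 to 129 counts and EIF2AK2 on 5956 to 12725. Positions and lengths come from GENCODE 44 on hg19, which may not be the annotation the authors counted on, promoters come from RefSeq, and DDX58 was matched as RIGI in both. The members and all lists were chosen with earlier results of these data known. Named genes are the 10 members, up to 4 genes per list and direction with the smallest adjusted p and a mean of at least 1 CPM, neighbours and overlapping genes, list genes without counts, and markers. NFKBIA, TNFAIP3, IRF3 and the interferon genes were named beside these after their values were seen. The siRNA sequences were not used here.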

Additional observations from a re-analysis of the deposited data

How the results depend on the processing

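The 6 members called higher and 2 called lower were the same in number with DESeq2, with its size factors in edgeR, with a filter that asks for 1 count in 1 library, and under the replicate block (6 higher and 2 lower). With a filter of 10 counts in every library, 5 were higher, because DHX58 did not pass it. Same-numbered libraries had a mean r of -0.17 between their deviations from the group means, over 3 pairs and 14875 genes. For libraries of other numbers it was 0.085 over 6 pairs. The ranges overlapped, at -0.32 to -0.013 and -0.27 to 0.29, so this could not decide whether the numbers pair the libraries. The block changed no call of a member. One member was lower, in place of 2, with library totals (1) and at an adjusted p under 0.01 (1, with 2175 genes higher in all), and between 1 and 2 were lower with each library left out. With the groups of the library names, which only turn the sign of every fold change, 2 were higher and 6 lower. Library totals shifted the median of all genes from 0.03 to 0.15 and moved TBK1 to 0.082. They gave 2 relay genes lower, 7 restraining genes higher, 4 genes around PKR higher, 3 duplex-binding genes lower and 1 Toll-like receptor gene lower, and the filter of 10 counts gave 2 of the latter. Over all genes, library totals called 4735 higher and 2797 lower, and the filter of 10 counts called 3423 of 14604 lower. With each library left out, relay genes lower were 2 to 6, genes around PKR higher 1 to 3, duplex-binding genes lower 3 to 10, and Toll-like receptor genes 2 to 6 higher and 1 to 4 lower. The calls over all genes moved as well, from 2381 to 4843 higher and from 2835 to 5079 lower. The log2 fold change of TBK1 was then between -0.10 and 0.020, and the ratio of TICAM1 to MAVS between -0.17 and 0.072. In these cases the cause was not tested. Control levels per kilobase of the longest and of the canonical transcript, the latter chosen after seeing the data, were 11.6 and 12.5 CPM for DDX58, 7.64 and 7.92 for IFIH1, 39.3 and 39.8 for EIF2AK2 and 11.6 and 22.7 for TBK1, and with both 0.247 for DHX58, 1.43 for TLR3, 36.9 for TRIM25 and 2.50 for IKBKE. Without the genes that passed the count filter through 1 group alone, a setting also chosen after seeing the data, the outputs called higher were 6 in place of 7. Depth limits genes of few counts, such as DHX58, IFNB1 and FAP.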
